A study of Xenopus laevis with 4 samples.

Results

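Solute carrier (slc) genes encode membrane proteins that move nutrients, metabolites and ions across the plasma membrane or the membranes of mitochondria, Golgi and vesicles. They were taken as the probe sets assigned to a single gene with a mean signal of at least 100 over the 4 arrays and a gene symbol made of slc, a family number, a subfamily letter and a member number, with the brightest probe set standing for each gene. That gave 83 members from 31 families, out of 5201 genes measured at that signal and 9251 probe sets tested. The array held 131 such probe sets for 120 genes. The 37 genes left out had mean signals of 2.35 to 96.9. Closest to the limit were slc25a20.S (117) and slc22a15.2.S (102) inside it, and slc26a4l.L (96.9) and slc18a1.S (95.0) outside it. This frog is allotetraploid, and .L or .S after a symbol tells its homeologous gene copies apart; 55 members carry .L, 25 carry .S and 3 carry neither.

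The RNA came from whole Xenopus laevis embryos at stage 12, in gastrulation. Control embryos had received 80 ng of a control morpholino and the others 40 ng of each of 2 morpholinos against xSGK1, injected radially at the 4-cell stage. A morpholino is an antisense oligonucleotide that keeps a transcript from being translated or spliced, so the signal of sgk1.L itself (2321 and 2839 in the controls, 3071 and 3300 after xSGK1 morpholinos) does not check the knockdown. There were 2 independent experiments with 1 array per injection in each, so n = 2 per group. Neither the strain nor how many embryos went into each RNA was given in the sources used here. The question was which genes SGK1 regulates at that stage.

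SGK1 is a kinase of the PI3K pathway that is best known, from mammalian cells, for keeping sodium channels and several solute carriers at the cell surface, partly by restraining the ubiquitin ligase NEDD4L. That control acts on the proteins, whereas the arrays measured transcripts. Early frog embryos live on yolk and stored RNA, and their carriers serve the use of yolk amino acids, the supply of mitochondria and the delivery of nucleotide sugars for glycosylation in the Golgi.

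The germ layer markers of a gastrula were present. Signals of at least 100 were found for 6 of 6 ectodermal, 4 of 5 mesodermal and 7 of 8 endodermal marker genes. All 7 marker genes of differentiated blood, heart, lens or pancreas lay at 28.0 or below. In controls of experiments 1 and 2 the summed ectodermal marker signal was 10539 and 6192, and after xSGK1 morpholinos 7586 and 3468. The endodermal sum was 9886 and 8639 in controls and 7254 and 6063 after xSGK1 morpholinos, and the mesodermal sum 8631 and 12124 against 11376 and 11669. Ectodermal and endodermal sums were thus lower after xSGK1 morpholinos in both experiments. In experiment 1 the lower ectodermal sum came from the epidermal keratin genes krt12.4.L (3922 to 1402) and krt12.4.S (2173 to 713), while the other 4 ectodermal markers, of the sox and tfap2a genes, were all higher (sum 4444 to 5471). In experiment 2 all 6 ectodermal markers were lower, and the sum of those 4 went from 4677 to 3333. Of the 8 endodermal markers 4 were lower in both experiments. The 2 brightest, a2m.S (4225 to 2030 and 2804 to 1686.5) and gata6.L (2931 to 2410 and 3006 to 1774.5), weighed most in the sum. Others went the other way in 1 experiment, such as gata4.L (383 to 542) in experiment 1 and sox17b.1.S (794 to 935) in experiment 2. The brightest mesodermal marker, vegt.L, was higher in both (5354 to 7335 and 7334 to 8343), while 2 of 5, gsc.L and gsc.S, were lower in both. The part of these cells in the results below was not tested. In whole embryos, fewer cells of a type and less RNA per cell cannot be told apart.

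Between the injections some solute carrier transcripts were higher and others lower, with no common direction. Signals are given in arbitrary units after scaling of each array, and log2 changes are those of signal + 16, xSGK1 minus control. The median log2 change of the 83 members was -0.0033 and that of all 9251 probe sets 0.04. In both experiments 32 members were higher after xSGK1 morpholinos (38.6%, against 40.8% of all probe sets) and 27 lower (32.5%, against 31.9%), and 24 went in opposite directions. The same direction in both was thus seen for 71.1% of members and 72.7% of all probe sets. Over the 83 members the ratios of experiment 1 and experiment 2 correlated at Pearson 0.57 and Spearman 0.56 (on the log2 scale). This is a correlation across genes, and genes are not independent replicates.

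Both xSGK1 arrays lay above both control arrays for 13 members and below both for 11. These 24 members are 28.9% of the 83, where 30.1% of all probe sets parted the injections in this way, 16.3% upward and 13.8% downward. The members therefore parted the injections about as often as all probe sets did. Here and below, a member is the brightest probe set of its gene. The shares of all probe sets also cover dimmer probe sets of a gene and those without a symbol. With 2 arrays a group the smallest p an exact permutation test allows is 0.333 if arrays are permuted without regard to the experiment. Swaps kept within each experiment allow fewer arrangements, so the smallest p is then larger.

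Differences were tested with limma over all 9251 probe sets, at a Benjamini-Hochberg adjusted p of 0.05. Without a term for the experiment the fit called 0 members and 0.00% of all probe sets. Its smallest adjusted p among members was 0.999, and 1 member (slc25a44.S) had an unadjusted p under 0.05, as did 3.61% of all probe sets. With the experiment as a block, which the study's paired layout allows, 11 members passed. That is 13.3% of the members, where 8.00% of all probe sets were called. The block fit called 4 members higher (4.82%, against 4.09% of all probe sets) and 7 lower (8.43%, against 3.91%). Of the 7 lower calls 2, slc25a22l.S and slc35c2.S, reached the mean signal of 100 only through the controls and so had to differ to be measured at all, as did 53 of the 362 lower calls over all probe sets. With so few calls nothing is read from the share of lower ones. Below, "rose" and "fell" are used for calls of limma with the block, and none of the 11 passed without it. Each SE below is that of limma, set largely from the spread over many probe sets and not from the gene's own arrays alone.

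**Figure D1:**
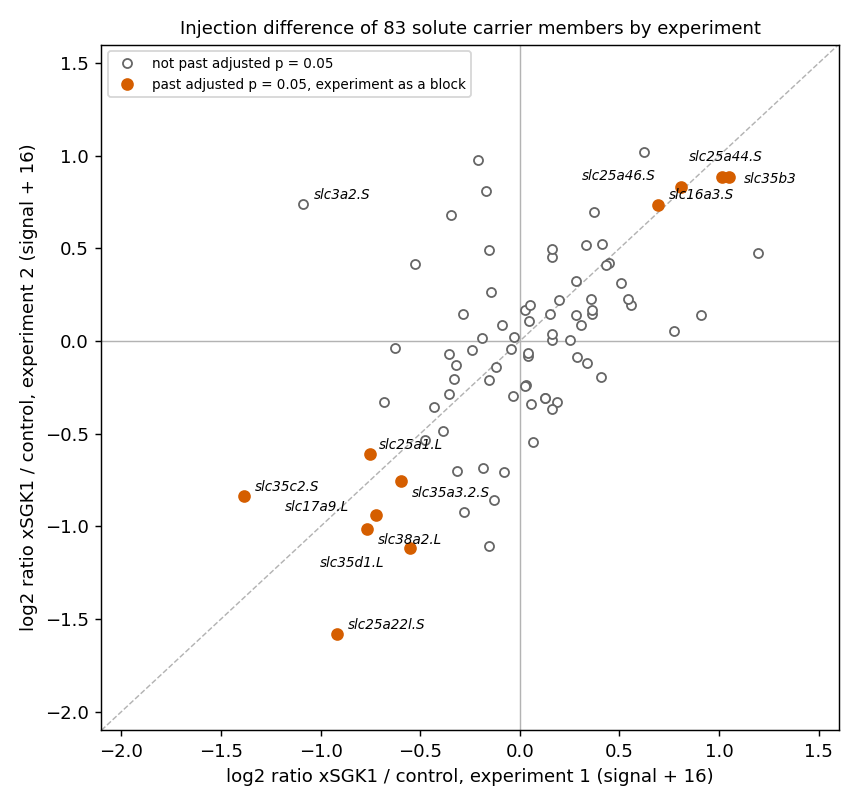
Each point is 1 of 83 solute carrier members. The axes give the log2 ratio of xSGK1 to control signal (signal + 16) in experiment 1 and experiment 2, filled points passed in limma with a term for the experiment, and the dashed line marks equal ratios. The 4 members that rose lie together at the upper right and the 7 that fell at the lower left, while slc3a2.S went down in experiment 1 and up in experiment 2.

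Among the carriers of amino acids, peptides and related amines 1 of 11 members fell and 0 rose (9.09% called, against 8.00% of all probe sets). Whether this class or those below differ from all probe sets was not tested. The member that fell was slc38a2.L, whose mammalian counterpart (SNAT2) takes up small neutral amino acids with sodium and is induced by amino acid shortage. Its signal was 2997 in the control and 1757 in the xSGK1 array of experiment 1, and 1909 and 939 in those of experiment 2. Both xSGK1 arrays were below both controls, by 1.71-fold and 2.03-fold within the experiments. The log2 change was -0.89 ± 0.13 SE (limma adjusted p = 0.0249 with the block, 0.00426 to 0.044 over 8 other settings with the block). The arrays of experiment 2 were also lower than those of experiment 1, by 0.77 on the log2 scale.

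Other amino acid carriers parted the injections without passing the test. The neutral amino acid exchanger slc1a5.S measured 577 and 487 in controls and 731 and 703 after xSGK1 morpholinos (log2 change 0.42, limma adjusted p = 0.125 with the block). The broad amino acid carrier slc6a14.2.L measured 1974 and 2225 against 2884 and 2603 (0.38, limma adjusted p = 0.108). The lysosomal carrier relative slc66a1l.L was higher too (0.41), and the cationic amino acid carrier light chain slc7a7.L was lower (-0.23). For slc1a5.S and slc6a14.2.L the experiments differed little, by -0.15 and 0.01 on the log2 scale.

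Of the heteromeric amino acid carriers, which pair a heavy chain with a light chain, the heavy chain slc3a2.S differed in opposite directions in the 2 experiments. It measured 342 and 152 in the control and xSGK1 arrays of experiment 1, and 69.1 and 126 in those of experiment 2. The light chain slc7a5.L, with which slc3a2 forms the large neutral amino acid exchanger, measured 254 and 152 in experiment 1 and 72.9 and 54.9 in experiment 2. Both were lower in experiment 2, slc7a5.L by 1.42 on the log2 scale (limma adjusted p = 0.00526) and slc3a2.S by 1.16 (0.0681). The transcript of slc7a9.L, a carrier of cystine and basic amino acids, went up from 133 and 265 in experiment 1 to 598 and 661 in experiment 2. The signal of slc7a8.L lay between 637 and 833 on all 4 arrays. The cationic amino acid carrier slc7a3.L, the brightest of this class, measured 1738 and 2311 in experiment 1 and 3420 and 2989 in experiment 2.

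Among the 8 sugar carriers none passed the test, where 8.00% of all probe sets did. Of the 8, 3 parted the injections (37.5%, against 30.1% of all probe sets). The facilitative glucose carrier slc2a2.L was 2383 and 2590 in controls and 1914 and 1588 after xSGK1 morpholinos (log2 change -0.51 ± 0.14 SE, limma adjusted p = 0.074 with the block). The sugar phosphate carrier relative slc37a2.L was 1305 and 1635 in controls and 1767 and 2178 after xSGK1 morpholinos (0.42 ± 0.12 SE, limma adjusted p = 0.0803). The third, slc50a1.L, was lower in experiment 1 and nearly equal between injections in experiment 2 (152 and 132 in controls, 93.2 and 128 after xSGK1 morpholinos). The glucose carrier slc2a1.L went from 402 to 701 in experiment 1 and from 829 to 863 in experiment 2. A second, dimmer probe set of slc2a1.L gave a log2 change of 0.19, beside 0.42 for the brighter one.

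Of 5 carboxylate carriers slc16a3.S rose. Its mammalian counterpart (MCT4) exports lactate from glycolytic cells. The signal of slc16a3.S was 308 and 559 in controls and 509 and 942 after xSGK1 morpholinos. The control of experiment 2 exceeded the xSGK1 array of experiment 1, so the groups overlapped, yet the ratio was 1.65-fold and 1.69-fold within the experiments. Its log2 change was 0.72 ± 0.15 SE (limma adjusted p = 0.042 with the block, 0.0266 to 0.0575 over 8 other settings with the block). The homeolog slc16a3.L measured 4619 and 4639 in controls and 5499 and 4650 after xSGK1 morpholinos, a log2 change of 0.13 that did not pass. Lower without passing were slc16a6.L, a ketone body carrier in zebrafish and mammals (273 to 192 and 179 to 119), and slc5a8.1.L, a sodium-coupled monocarboxylate carrier (2976 to 2813 and 2593 to 1581).

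**Figure D2:**
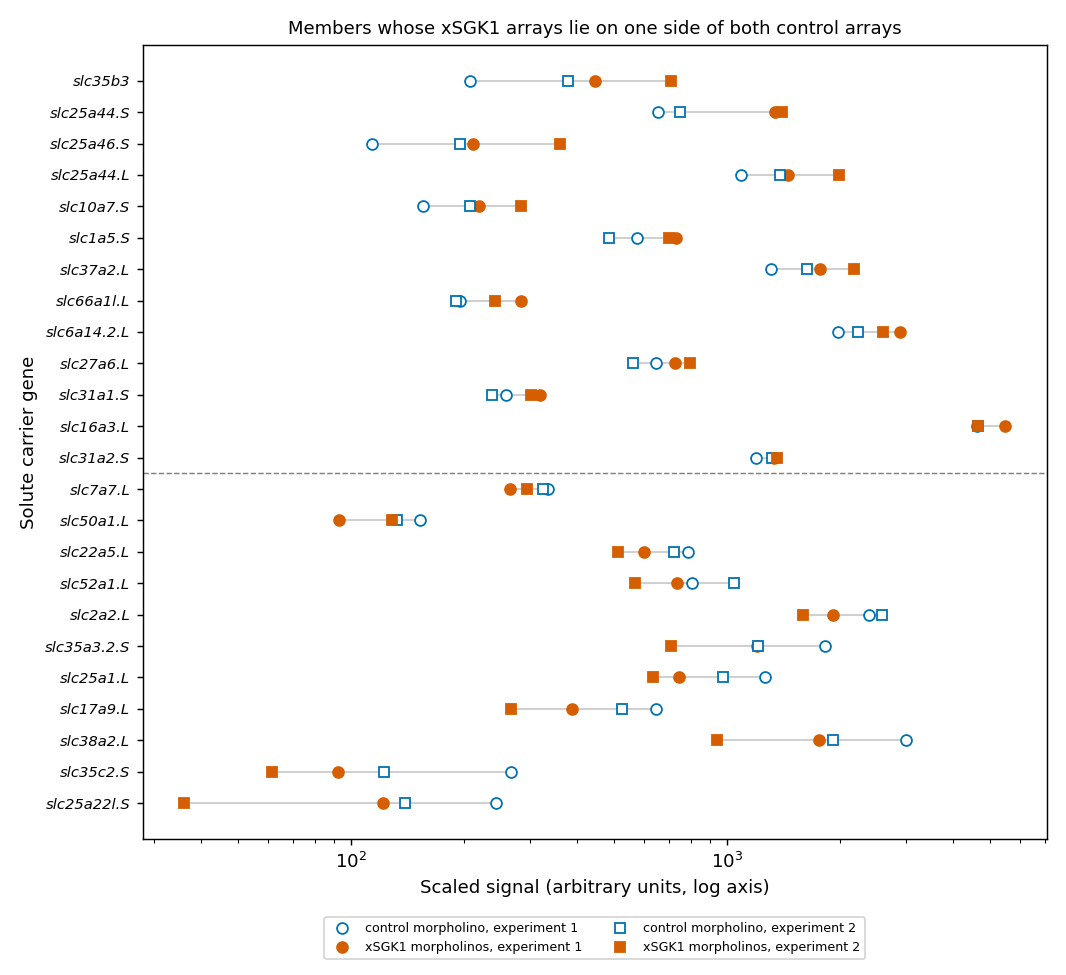
Scaled signal (log axis) on the 4 arrays for the 24 members whose xSGK1 arrays (filled) lay on one side of both control arrays (open), circles for experiment 1 and squares for experiment 2. The 13 members above the dashed line had higher and the 11 below it lower xSGK1 signals; the gap between the groups is widest for slc25a44.S and near 0 for slc31a2.S, slc16a3.L and slc35a3.2.S.

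The mitochondrial carriers of family 25, most of which link the matrix with the cytosol, were the most numerous class with 22 members. The class was set by family, so it also holds slc25a46.S of the outer membrane and the 2 copies of the peroxisomal slc25a17. With the block 2 rose and 2 fell (18.2% called, against 8.00% of all probe sets), and the median log2 change of the class was 0.03. The largest rise among them was that of slc25a44.S, whose mammalian counterpart brings branched-chain amino acids into mitochondria. It measured 655 and 752 in controls and 1339 and 1400.5 after xSGK1 morpholinos. The groups were far apart and the experiments differed by 0.13 on the log2 scale. Its log2 change was 0.95 ± 0.14 SE (limma adjusted p = 0.0249 with the block, 0.00548 to 0.038 over 8 other settings with the block). The homeolog slc25a44.L also parted the injections, at 1090 and 1379 in controls and 1454 and 1990.0 after xSGK1 morpholinos (0.47 ± 0.12 SE, limma adjusted p = 0.0727).

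The second mitochondrial member that rose, slc25a46.S, encodes an outer membrane protein that takes part in mitochondrial fission and lipid exchange in mammals. It measured 114 and 195 in controls and 211 and 359 after xSGK1 morpholinos, 1.86-fold and 1.84-fold within the experiments. Its log2 change was 0.82 ± 0.17 SE (limma adjusted p = 0.0441 with the block, 0.0314 to 0.0677 over 7 other settings with the block). The control of experiment 2 lay just under the xSGK1 array of experiment 1, and the experiments differed by 0.71 on the log2 scale.

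The citrate carrier slc25a1.L, which exports mitochondrial citrate for lipid synthesis, fell. It measured 1264 and 975 in controls and 744 and 634 after xSGK1 morpholinos, and the log2 change was -0.68 ± 0.14 SE (limma adjusted p = 0.041 with the block, 0.016 to 0.0632 over 8 other settings with the block). The groups did not overlap, and the difference between experiments, -0.30 on the log2 scale, did not pass (limma adjusted p = 0.137). The glutamate carrier relative slc25a22l.S fell from 243 to 121 and from 140 to 36.0, by 1.25 ± 0.23 SE on the log2 scale (limma adjusted p = 0.0336 with the block, 0.00954 to 0.0497 over 7 other settings with the block). It was a dim member whose xSGK1 arrays had a mean of 78.6, under the signal limit of 100, so its place among the members and the calls rests on the controls (mean 191).

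The adenine nucleotide translocase slc25a5.L, the brightest solute carrier probe set, measured 11616 and 12175 in controls and 11265 and 11819 after xSGK1 morpholinos. The phosphate carrier slc25a3.L measured 3169 and 3959 in controls and 2915 and 3597 after xSGK1 morpholinos. The carnitine carrier slc25a20.L and the aspartate and glutamate carrier slc25a13.L had log2 changes of 0.21 and -0.09. None of these 4 passed the test, and neither did the third brightest of the family, slc25a17.L (-0.63), described below with its homeolog.

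Many carriers of family 35 load the Golgi and endoplasmic reticulum with the activated sugars and sulfate donors used in glycosylation and proteoglycan synthesis. With slc33a1.L, the acetyl-CoA carrier of the endoplasmic reticulum, the family made a class of 11 members. Of these 1 rose and 3 fell with the block (36.4% called, against 8.00% of all probe sets). The class is named for nucleotide sugars but was set by family, and the substrate of each member was not checked. The member that rose was slc35b3, a carrier of the sulfate donor PAPS. It measured 207 and 377 in controls and 446 and 709 after xSGK1 morpholinos, a log2 change of 0.97 ± 0.16 SE (limma adjusted p = 0.0286 with the block, 0.0112 to 0.038 over 8 other settings with the block). A dimmer second probe set of slc35b3 also parted the injections, with a log2 change of 0.55 that did not pass (0.117). The other PAPS carrier gene, slc35b2.S, went from 243 to 274 and from 528 to 405.

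The 3 members of this class that fell are linked to different sugars. The signal of slc35a3.2.S, of the UDP-N-acetylglucosamine carriers, was 1823 and 1208 in controls and 1201 and 709 after xSGK1 morpholinos. The lower control and the higher xSGK1 array were almost equal, and within the experiments the signal was 1.52-fold and 1.70-fold lower. The log2 change was -0.68 ± 0.13 SE (limma adjusted p = 0.0371 with the block, 0.0131 to 0.0637 over 8 other settings with the block). The signal of slc35d1.L, a carrier of UDP-glucuronic acid and UDP-N-acetylgalactosamine, was 1593 and 3625 in controls and 1082 and 1666 after xSGK1 morpholinos. Its groups overlapped because experiment 2 gave the higher signals, and the signal was 1.47-fold and 2.18-fold lower within the experiments. The log2 change was -0.83 ± 0.16 SE (limma adjusted p = 0.0368 with the block, 0.00916 to 0.0709 over 8 other settings with the block).

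The third was slc35c2.S, which in mammals influences the fucosylation of Notch. It measured 267 and 122 in controls and 92.3 and 61.5 after xSGK1 morpholinos, a log2 change of -1.11 ± 0.22 SE (limma adjusted p = 0.0376 with the block, 0.00949 to 0.0771 over 7 other settings with the block). Both xSGK1 arrays were below the signal limit of 100 (mean 76.9, against 195 in controls), so slc35c2.S too was a member only through the controls. The UDP-galactose carrier slc35a2.L was lower in both experiments without passing (340 to 249 and 221 to 169). The probe set assigned to slc35b1, the brightest of the class, measured 2652 and 2194 in controls and 2900.5 and 1773 after xSGK1 morpholinos, and slc35e1.L lay between 442 and 508 on all arrays.

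Among 8 carriers of lipids and organic ions 1, slc17a9.L, fell (12.5% called, against 8.00% of all probe sets). Its mammalian counterpart fills secretory vesicles with ATP. It measured 649 and 524 in controls and 386 and 266 after xSGK1 morpholinos, and the groups did not overlap. The log2 change was -0.83 ± 0.16 SE (limma adjusted p = 0.0357 with the block, 0.0106 to 0.0473 over 8 other settings with the block). The carnitine carrier slc22a5.L was 787 and 724 in controls and 600 and 513 after xSGK1 morpholinos (log2 change -0.43, limma adjusted p = 0.114). A second probe set of slc22a5.L, almost as bright, gave -0.33 and did not part the injections (846 and 611 in controls, 647 and 499 after xSGK1 morpholinos). Higher in all xSGK1 arrays without passing were the fatty acid carrier slc27a6.L (0.33) and the bile acid carrier relative slc10a7.S (0.43).

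Of 9 carriers of trace metals and heme none passed, where 8.00% of all probe sets did. The copper carriers slc31a1.S and slc31a2.S parted the injections with log2 changes of 0.30 and 0.10. The zinc carrier slc30a9.S went from 148 to 236 in experiment 1 and from 250 to 524 in experiment 2 (0.82 ± 0.19 SE, with a limma adjusted p of 0.0514). The zinc exporter slc30a1.L, the brightest of these, measured 1782 and 3043 in controls and 1814 and 2574 after xSGK1 morpholinos. The zinc carrier slc39a7.L of the secretory pathway was lower in both experiments (2052 to 1603 and 1419 to 1161).

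The remaining classes held few members and 0 calls. The phosphate carrier slc20a1.L went from 793 to 1030.1 and from 1069 to 1740 (0.53 on the log2 scale, limma adjusted p = 0.0765 with the block). The nucleoside carrier slc29a2.L went from 264 to 230 and from 137 to 79.5 (-0.43, limma adjusted p = 0.218). The riboflavin carrier slc52a1.L parted the injections, at 808 and 1042 in controls and 737 and 568 after xSGK1 morpholinos (-0.49, limma adjusted p = 0.17), and the choline carrier slc44a1.L had a log2 change of -0.14. The 3 members of the class for protons, bicarbonate, chloride and sulfate, set by family, were slc13a4l.S, slc26a6 and slc4a11.L. Their log2 changes were -0.24 to 0.11.

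**Figure D3:**
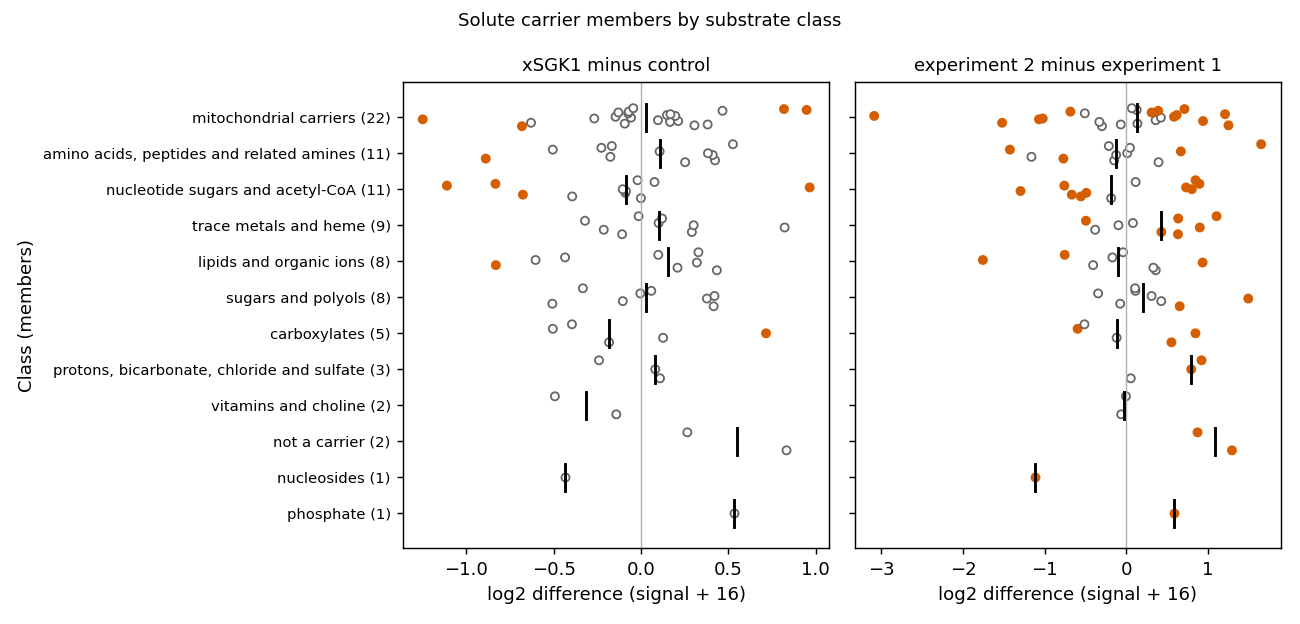
Log2 difference (signal + 16) of each solute carrier member by substrate class, on the left xSGK1 minus control and on the right experiment 2 minus experiment 1. Filled points passed an adjusted p of 0.05 in limma (left with the experiment as a block, right with the injection as a term), and bars are class medians; calls on the left lie in 5 classes (mitochondrial, amino acid, nucleotide sugar, lipid and organic ion, and carboxylate carriers), and on both sides of 0.

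The symbol rule also took in slc9a3r1.L and slc9a3r1.S, which encode a scaffold protein that binds carriers and is itself no carrier. The signal of slc9a3r1.L was 678 and 2169 in controls and 1572 and 3017 after xSGK1 morpholinos, so the groups overlapped (log2 change 0.83 ± 0.19 SE, limma adjusted p = 0.052 with the block). A second, dimmer probe set gave 0.46. For slc9a3r1.S the values were 1035 and 2045 in controls and 1337 and 2298 after xSGK1 morpholinos (log2 change 0.27). Without both genes the 81 other members had a median log2 change of -0.01.

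Both homeologs were members for 9 genes. In 7 pairs the log2 changes between injections had the same sign, and in 6 pairs those between experiments did. Among the 7 pairs, slc25a11.S, slc25a24.S and slc25a28.S went in opposite directions in the 2 experiments, so their signs are not settled. Whether the agreement exceeds chance was not tested. Among these 9 pairs a copy passed with the block for slc16a3 and slc25a44 alone, the .S copy each time, and whether the copies differ was not tested. The peroxisomal carrier gene slc25a17 showed opposite signs, with log2 changes of -0.63 for the .L and 0.17 for the .S copy. Its .L copy measured 3543 and 1711 in controls and 3186 and 787 after xSGK1 morpholinos, and its .S copy 931 and 512 against 728 and 830. Transcripts of homeologs can cross-hybridise. Of the 83 probe sets 6 carry an array suffix (_x or _a). The suffix _x, which warns of sequence shared with other genes, is carried by those of slc22a5.L and slc30a6.S, which lie outside these pairs.

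**Figure D4:**
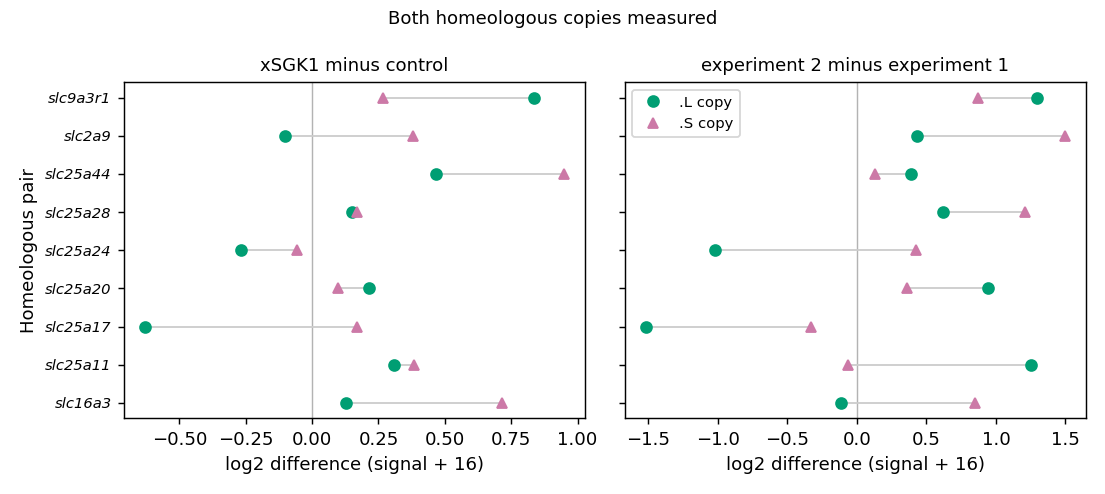
Log2 differences (signal + 16) of the .L copy (circles) and the .S copy (triangles) of the 9 genes with both copies measured, between injections on the left and between experiments on the right. The copies lie on the same side of 0 in 7 pairs on the left and 6 on the right, with slc25a17 and slc2a9 the exceptions on the left.

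The 2 experiments differed from each other more than the injections did. The median absolute log2 difference of the members was 0.55 between experiments and 0.27 between injections, against 0.40 and 0.25 for all probe sets. With the injection as a term limma called 46 of 83 members between the experiments (55.4%), where 40.8% of all probe sets were called. The count was 29 higher in experiment 2 (34.9%, against 20.9%) and 17 lower (20.5%, against 19.9%). Of the 11 members called for injection 8 were also called between experiments. Among all 740 injection calls 63.8% also passed between experiments (5.10% of every probe set tested), so the overlap is not particular to the members. The others were slc25a44.S, slc25a1.L and slc17a9.L. Without the injection term the fit called 1 of 83 members between experiments.

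The largest difference between experiments was that of slc25a26.L, the mitochondrial carrier of S-adenosylmethionine. It measured 750 and 933 in the control and xSGK1 arrays of experiment 1 and 81.5 and 87.4 in experiment 2, a log2 difference of -3.09 ± 0.17 SE (limma adjusted p = 0.00146). Its mean in experiment 2 (84.4) was under the signal limit, so it was a member only through experiment 1. The same holds for slc7a5.L (63.9) and slc3a2.S (97.6). Such members had to differ between experiments to be measured at all, and 4 of the 29 higher and 4 of the 17 lower calls are of this kind. Over all probe sets 226 of 1933 higher and 226 of 1842 lower calls are. Between injections the log2 change of slc25a26.L was 0.20. Next came slc22a4.L, an organic cation and ergothioneine carrier in mammals, with 2902 and 2385 in experiment 1 and 1064 and 553 in experiment 2. The others in this direction were slc25a17.L, slc7a5.L and slc35b1.L, with log2 differences of -1.52, -1.42 and -1.29.

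In the other direction slc7a9.L led with a log2 difference of 1.65. The urate carrier slc2a9.S measured 444 and 662 in experiment 1 and 1454 and 1669 in experiment 2 (1.49, limma adjusted p = 0.00315). Then came slc9a3r1.L, the oxoglutarate carrier slc25a11.L and the mitochondrial iron carrier slc25a28.S, with log2 differences of 1.29, 1.25 and 1.21. In the nucleotide sugar and acetyl-CoA class, set by family, 9 of 11 members (81.8%) were called between experiments, 4 higher and 5 lower. In trace metal carriers 6 of 9 (66.7%) were called, 5 of them higher. The counts were 13 of 22 (59.1%) in mitochondrial and 4 of 11 (36.4%) in amino acid carriers. In the sugar class, also set by family and holding slc2a9.L and slc2a9.S, 2 of 8 (25.0%) were called. Over all probe sets 40.8% were called. The classes are small, and whether they differ was not tested.

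**Figure D5:**
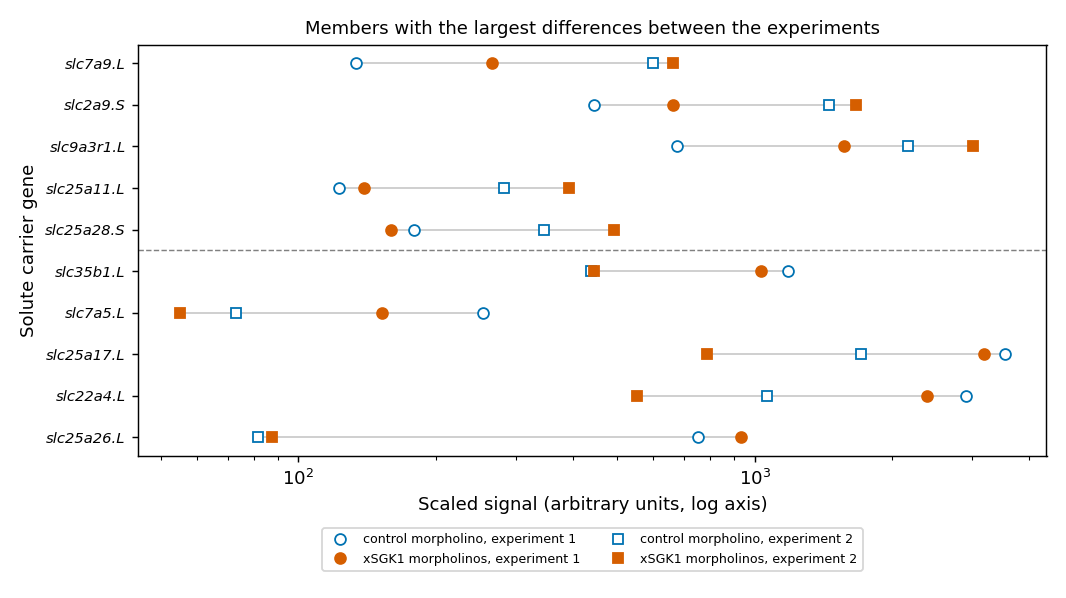
Scaled signal (log axis) on the 4 arrays for the 5 members with the largest rise (above the dashed line) and the 5 with the largest fall (below it) from experiment 1 (circles) to experiment 2 (squares), open for control and filled for xSGK1 morpholinos. In each the circles and squares do not overlap; for slc25a26.L they lie at 750 and 933 against 81.5 and 87.4.

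Transport genes of other kinds were also measured, in short lists. With the block 8.00% of all probe sets were called between injections, and with lists this short nothing is read from 0 or 1 calls. Among 4 calcium pumps atp2b1.L, a plasma membrane pump, rose 2.05-fold, 362 against 742, in experiment 1 and 1.94-fold, 525 against 1018, in experiment 2 (limma adjusted p = 0.0264 with the block), and the sarcoplasmic reticulum pump atp2a1.S (0.49) did not pass (0.0581). The other 2 calcium pumps, atp2a2.S and atp2a3.L, had log2 changes of -0.22 and -0.06. Of 4 sodium pump subunits 0 passed. They were atp1b2.L (-0.60), atp1b1.S (0.22), atp1b3.S (-0.13) and atp1b3.L (-0.05). Of 16 genes of the vacuolar proton pump, which acidifies endosomes and lysosomes, 0 passed, while 11 were higher (68.8%, against 40.8% of all probe sets) and 4 lower (25.0%, against 31.9%) in both experiments. Those with the smallest p were atp6ap2.L (-0.45), atp6v0b.L (0.42), atp6v0c.L (0.23) and atp6v1g1.S (0.31).

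Carriers named outside the slc scheme counted 15 measured genes, of which 0 rose and 1 fell (6.67% called, against 8.00% of all probe sets). The heme and choline carrier relative flvcr2.L went from 855 to 521 and from 679 to 324, and its limma adjusted p with the block was 0.0339 (log2 change -0.86 ± 0.16 SE). The phosphate exporter xpr1.L (0.61), the sideroflexin sfxn3.L (0.67) and mfsd5.S (-0.39) did not pass. The single ABC transporter, abcd3.S, and the single aquaporin, aqp11.L, had log2 changes of 0.29 and 0.27. Among 8 partners and regulators of carriers 0 passed. The ubiquitin ligase gene nedd4l.S measured 131 and 328 in controls and 235 and 520 after xSGK1 morpholinos (0.70 ± 0.17 SE, limma adjusted p = 0.0571 with the block), and it was also higher in experiment 2, by 1.16 on the log2 scale. The sgk1.L transcript (0.31), the carrier chaperone gene nptn.S (0.23) and the kinase gene oxsr1.S (-0.17) did not pass.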

How the data were processed

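From 100 ng of total RNA, cRNA was made with 2 amplification cycles and read on Affymetrix genome arrays for this species, per the labels' protocols. The authors deposited linear signal intensities for 15611 probe sets; MAS5 and GCOS are named per the submitters' processing notes, and version 1.4 of GCOS in the series text; the 2% trimmed mean of the deposited intensities was about 500 on each array. Detection calls were not used here. Here each array was scaled to that trimmed mean, set to 500, and log2(signal + 16) was used. Left out were 120 control probe sets and every probe set whose mean signal was under 100. Gene symbols came from the platform table (9304 probe sets with 1 symbol, 195 with several, 6112 with none) and 9227 were matched to RefSeq, assembly Xenopus_laevis_v10.1. Coordinates are not printed, since the sources used here name no build for the array.

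Injections were compared by limma 3.58.1 under R 4.3.3 (intensity trend, two-sided, Benjamini-Hochberg over 9251 probe sets). The fit without a block is the one laid down; a fit with a term for the experiment (the block) is given beside it, because the series text describes 2 experiments that each held both injections (across probe sets the difference between experiments in controls and that in xSGK1 arrays had a Pearson correlation of 0.838). Whether the arrays of an experiment came from separate embryo batches is not given beyond that. The p-values therefore reach no further than these arrays, whose number limits the precision. With so few arrays limma sets each SE largely from the spread over probe sets of like signal. The SE of a gene thus need not follow its own 2 ratios. For slc16a3.S the log2 ratios were 0.70 and 0.74 with an SE of 0.15, and for slc3a2.S -1.09 and 0.74 with 0.41. The self-test ran on simulated data. The members, lists and substrate classes (by family, with slc66 and slc13a4l placed after their values were seen) were chosen with earlier results of these data known. Named are all members that part the injections, those called with the block, the brightest of each class, the 5 largest differences between experiments each way, and up to 4 genes per list of other transport genes with the smallest p; further members were chosen after their values were seen. Alternatives were other offsets, signal filters, normalizations, variance models and probe set choices, the block, and each array left out. Figures were drawn with matplotlib 3.10.9.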

Additional observations from a re-analysis of the deposited data

Results flagged for a closer look

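For slc3a2.S, the heavy chain of heteromeric amino acid carriers, the injections differed in opposite directions in the 2 experiments, by at least 1.5-fold each time. The log2 ratio of xSGK1 to control was -1.09 in experiment 1 and 0.74 in experiment 2. With 1 array per injection in each experiment this difference was not tested.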

How the results depend on the processing

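The call of members between injections rests on the replicate block: 0 members and 0 probe sets passed without it, and 11 and 740 with it. With the block the counts of members and of all probe sets were 9 and 572 under quantile normalization, 18 and 1392 under cyclic loess, 13 and 827 with offset 1, 13 and 1136 with offset 64, 8 and 490 with a signal filter of 300, 9 and 664 with no filter, 7 and 543 with no intensity trend, and 13 and 775 with suffixed probe sets left out. Of the 11 members, slc17a9.L, slc25a22l.S, slc25a44.S, slc35b3 and slc38a2.L passed in all of these that measured them. Without the block no alternative that kept all 4 arrays made a call; with 1 array left out 0 to 1 members and 0 to 110 probe sets passed, the single member being slc25a17.L without the xSGK1 array of experiment 1 (log2 change -1.63, limma adjusted p = 0.038). All 11 kept their direction in every alternative run, but with 1 array left out the experiments are unequally represented and 8 of them moved by over 1.5 times. That was so for 7 without the control and 5 without the xSGK1 array of experiment 1, and for 2 without the control and 6 without the xSGK1 array of experiment 2. The log2 changes then ranged from -1.42 to -0.24 for slc35d1.L, -1.05 to -0.30 for slc35a3.2.S, -1.33 to -0.44 for slc38a2.L, -1.95 to -0.55 for slc25a22l.S, -1.63 to -0.59 for slc35c2.S, 0.28 to 1.15 for slc16a3.S, 0.46 to 1.18 for slc25a46.S and 0.56 to 1.37 for slc35b3. The others, slc25a44.S, slc25a1.L and slc17a9.L, moved less. The median log2 change of members was -0.0381 under quantile normalization (also with the replicate block), 0.0286 with suffixed probe sets left out (also with the block) and -0.0519 to 0.112 with 1 array left out, so its sign is not settled. The count of members parting the injections was 24 and became 40 of 120 genes with no filter, and 38 to 68 with 1 array left out, where the criterion is easier to meet. The 16 genes added with no filter are all from the 37 with mean signals under 100 (43.2% of those). The share of all probe sets parting the injections is not given for these settings. Nothing about solute carriers is therefore read from the higher counts. The 46 members called between experiments became 29 with a filter of 300, where 55 genes remain, and 1 with no injection term; with 1 array left out no spread is left for that fit, so it was not run. Depth in the sense of signal limits the dim members: slc25a22l.S and slc35c2.S have mean xSGK1 signals under 100.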
